A study of Homo sapiens with 6 samples.

Results

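Aminoacyl-tRNA synthetases are the enzymes that load each amino acid onto its tRNA, and their genes were described here in CAL-27 cells grown as spheres and in adherent parental CAL-27 cells. Members were the genes whose symbol is 1 letter followed by ARS1 or ARS2, together with EPRS1, FARSA and FARSB. This gave 37 of the 17110 genes of the deposited table, 20 for cytosolic and 17 for mitochondrial enzymes. All 37 had a mean of at least 1 TPM over the 6 libraries and were tested. CAL-27, an established line, comes from a human squamous carcinoma of the tongue. The sphere group held 3 libraries of cells from a suspension culture that, per the series' design text, served to isolate cancer stem cells. The parental group held 3 libraries of cells grown in adhesion. Both groups carry the same line label, and no agent or genetic change is given for either. Nothing in the labels ties a replicate to a culture of its own, so the tests rest on the spread of 3 libraries a group, part or all of which may be technical.

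Cytosolic synthetases supply the ribosomes of the cytosol, while a largely separate set of nuclear genes encodes the enzymes imported into mitochondria. GARS1 and KARS1 each encode both forms, and mitochondria have no glutaminyl-tRNA synthetase of their own but amidate a tRNA first loaded with glutamate. In mammalian cells 8 of the cytosolic enzymes sit in a multi-synthetase complex held together by the scaffolds AIMP1, AIMP2 and EEF1E1. Many cytosolic synthetase genes are targets of ATF4, the transcription factor of the amino acid response, and WARS1 is known for its induction by interferon-gamma.

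Most synthetase transcripts were lower in sphere libraries in both compartments, and the changes were moderate in size. Of 20 cytosolic genes 17 fell, WARS1 rose and 2 did not pass the threshold (limma on log2(TPM + 1), adjusted p of 0.05). Of 17 mitochondrial genes 14 fell, RARS2 and YARS2 rose and HARS2 did not pass. These libraries differed in most genes: of all 12261 tested genes 83.4% passed, 48.2% lower and 35.1% higher in sphere. That 34 of 37 synthetases passed is therefore close to the background and says nothing particular about them. The median log2 difference was -0.38 for cytosolic and -0.50 for mitochondrial members, against -0.13 for all tested genes, or -0.25 and -0.36 relative to all genes. With median-of-ratios scaling between libraries, which moves the median of all tested genes by 0.14 to 0.01, 3 cytosolic genes were higher and 16 lower (15.8% of cytosolic calls higher with this scaling, against 5.56% without it), and the medians relative to all genes were -0.24 and -0.37. A lower share of a library need not mean fewer transcripts per cell, since TPM have the same sum in each library. In bulk samples fewer cells of a type and less RNA per cell cannot be told apart.

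**Figure D1:**
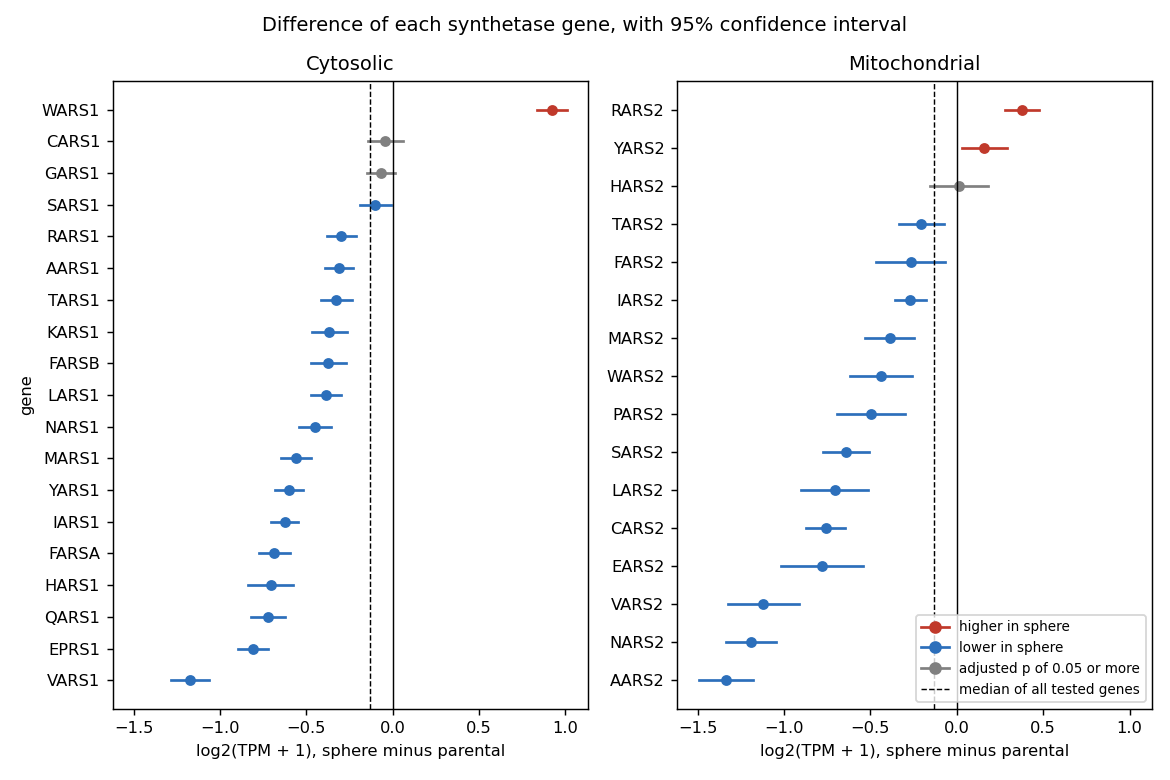
Difference of synthetase genes on the log2(TPM + 1) scale, sphere minus parental, with its 95% confidence interval from limma, for 19 cytosolic (left) and 16 mitochondrial (right) genes. The dashed line marks the median of all tested genes (-0.13); WARS1 stands at 0.92, far to the right of the other cytosolic genes, and the mitochondrial genes spread from -1.34 (AARS2) to 0.38 (RARS2).

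Promoter sequences of 30 of the 37 genes were found in the RefSeq table (GRCh38.p14), and 3 stretches are shown because results below turn on these genes. AARS2, LARS1, VARS1, VARS2 and YARS1 were among those with no entry. The first stretch separates HARS1 from HARS2, neighbouring genes read in opposite directions, and is given whole in the direction of HARS2. The next 2 hold the core of the C/EBP-ATF response element bound by ATF4, searched as TGATGNAA on both strands in the 250 bases before each start, with the match in capitals. These 2 run 5′ to 3′ along their gene.
HARS1 to HARS2, chr5:140691371-140691454, plus strand: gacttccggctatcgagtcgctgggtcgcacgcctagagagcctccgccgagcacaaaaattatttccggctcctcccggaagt
AARS1, chr16:70289664-70289715, minus strand: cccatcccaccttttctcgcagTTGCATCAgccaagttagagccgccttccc
IARS1, chr9:92293698-92293732, minus strand: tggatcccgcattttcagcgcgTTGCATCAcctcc

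The C/EBP-ATF core was found before a start of 3 of 16 cytosolic members with a sequence (AARS1, GARS1 and IARS1) and of 1 of 14 mitochondrial members (YARS2). It was found before a start of 3.89% of all genes in the table and of 2.26% of the tested genes with a sequence, or in 3.14% of all 35116 promoter windows. AARS1 and IARS1 fell in sphere libraries, GARS1 did not pass and YARS2 rose. The rise of YARS2 was small, and its call was lost in some fits with 1 library left out. Genes with the match thus did not all pass in the same direction. A match is a description of the sequence, and no binding was measured.

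WARS1, the tryptophanyl-tRNA synthetase (Entrez Gene 7453), was the only cytosolic member that rose in TPM as deposited. It was at 122, 117 and 121 TPM in sphere libraries, against 62.8, 62.7 and 63.0 TPM in parental libraries. All sphere libraries were above all parental libraries, and the fold was 1.91. The log2 difference was 0.92 with a standard error of 0.038 (limma adjusted p = 9.0e-09). In parental libraries WARS1 ranked last of the 20 cytosolic genes by TPM in each library, and in sphere libraries it ranked between 6 and 7. Its share of the summed cytosolic synthetase TPM was 5.37 ± 0.05% in sphere and 2.16 ± 0.01% in parental libraries (SD, n = 3 each). Its neighbours along the chromosome were higher too: the 20 tested genes on each side had a median log2 difference of 0.63, the highest such value among the 37 members, and 8 of the 40 were below 0. The part of this region in the rise of WARS1 was not tested.

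Interferon-gamma target genes were mostly lower in the same libraries. Of 8 such genes fixed as a list, 7 were tested, and 6 fell and 1 rose, where 48.2% of all tested genes fell and 35.1% rose. GBP1, an interferon-induced guanylate-binding protein, had the largest fall and was at 12.2 ± 0.6 TPM in sphere and 41.9 ± 0.6 TPM in parental libraries (SD, n = 3 each). CXCL10, a chemokine, was the gene that rose, at 8.15 ± 0.14 TPM in sphere and 3.21 ± 0.39 TPM in parental libraries. Their median stood at -0.89 relative to all genes, while WARS1 stood at 1.06 on that scale. These genes are a small part of the interferon response, and the part of interferon-gamma in the rise of WARS1 was not tested.

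The largest cytosolic fall was in VARS1, the valyl-tRNA synthetase (Entrez Gene 7407). VARS1 was at 56.5, 51.6 and 57.4 TPM in sphere libraries, against 129, 126 and 121 TPM in parental libraries. The groups lay far apart, and VARS1 was the only cytosolic gene with a fall of at least 2-fold (log2 difference -1.17, standard error 0.050, limma adjusted p = 1.2e-08). It ranked last among cytosolic genes in each sphere library and between 10 and 13 in parental libraries. Its neighbours had a median log2 difference of -0.36 over 40 genes, against -0.13 for all tested genes. The part of this region in the fall of VARS1 was not tested.

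EPRS1, which joins the glutamyl and prolyl enzymes in 1 protein (Entrez Gene 2058), was at 74.1, 69.6 and 72.2 TPM in sphere libraries, against 126, 127 and 127 TPM in parental libraries. QARS1, the glutaminyl-tRNA synthetase (Entrez Gene 5859), was at 59.1, 54.6 and 58.4 TPM in sphere libraries, against 94.0, 94.3 and 97.2 TPM in parental libraries. HARS1, the histidyl-tRNA synthetase (Entrez Gene 3035), was at 72.1, 70.2 and 74.6 TPM in sphere libraries, against 120, 109 and 128 TPM in parental libraries. In each of these 3 genes all sphere libraries were below all parental libraries, by 1.76-fold for EPRS1, 1.66-fold for QARS1 and 1.64-fold for HARS1. The log2 differences were -0.81, -0.72 and -0.71, with limma adjusted p of at most 1.7e-06.

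The other cytosolic falls were smaller. FARSA, the alpha subunit of the phenylalanyl enzyme, IARS1 for isoleucine and YARS1 for tyrosine fell 1.61-fold, 1.55-fold and 1.52-fold. With VARS1, EPRS1, QARS1 and HARS1 they made 7 of 20 cytosolic genes with a fall of at least 1.5-fold, where 30.7% of all tested genes fell by as much. MARS1, NARS1, LARS1, FARSB, KARS1, TARS1, AARS1 and RARS1 fell between 1.48-fold (MARS1) and 1.23-fold (RARS1). FARSA and FARSB encode the paired subunits of 1 enzyme, and their falls differed in size, 1.61-fold for the alpha and 1.30-fold for the beta subunit. TARS1, the threonyl enzyme, lay among neighbours that were lower as well (median log2 difference -0.56 over 40 genes, against -0.33 for TARS1). HARS1 fell among neighbours with a median of 0.55.

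SARS1, GARS1 and CARS1 changed least. SARS1, the seryl enzyme, was at 209 ± 8.5 TPM in sphere and 224 ± 3.2 TPM in parental libraries (SD, n = 3 each). Its log2 difference was -0.10 (limma adjusted p = 0.037), and this call was lost when sphere replicate 2 or 3 or parental replicate 2 or 3 was left out, where adjusted p was between 0.0736 and 0.156. It was also lost without the mean-variance trend (adjusted p = 0.0945) and with the replicate block (0.0559). GARS1, the glycyl enzyme, was at 205 ± 2.8 TPM in sphere and 215 ± 6.3 TPM in parental libraries, and CARS1, the cysteinyl enzyme, at 79.3 ± 2.0 TPM in sphere and 81.8 ± 3.3 TPM in parental libraries. With limma adjusted p of 0.103 and 0.385 neither passed, and the 95% intervals of the log2 difference ran from -0.15 to 0.013 for GARS1 and from -0.14 to 0.057 for CARS1. With median-of-ratios scaling all 3 turned positive, and GARS1 and CARS1 then passed as higher (0.088 and 0.11 on the log2 scale).

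**Figure D2:**
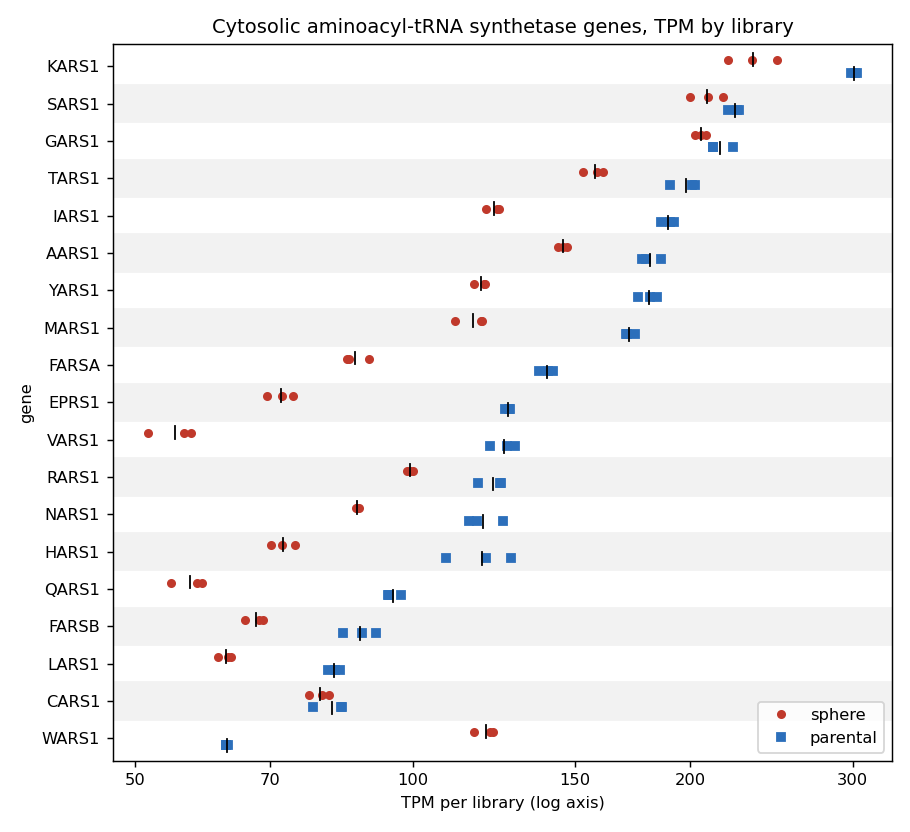
TPM of 19 cytosolic synthetase genes in each sphere (circles) and parental (squares) library on a log axis, ordered by the parental mean, with black bars at the group means. KARS1 is the most abundant in each library, and WARS1 alone lies to the right in sphere, at 117 to 122 TPM against 62.7 to 63.0 TPM in parental libraries.

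Summed over the cytosolic genes, synthetase transcripts came to 2251, 2194 and 2256 TPM in sphere libraries, against 2889, 2927 and 2913 TPM in parental libraries. The sums did not overlap and differed by 1.30-fold. KARS1, the lysyl enzyme, led in each library with 10.5 ± 0.5% of the sum in sphere and 10.4 ± 0.05% in parental libraries (SD, n = 3 each). SARS1 and GARS1 followed in each library, so that the order at the top was almost the same in both groups. SARS1 ranked behind GARS1 in sphere replicate 3.

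The 8 enzymes of the multi-synthetase complex all fell, with log2 differences from -0.81 (EPRS1) to -0.30 (RARS1) and a median of -0.34 relative to all genes. Of the 12 cytosolic members outside the complex, 9 fell, 1 rose and 2 did not pass, with a median of -0.22 relative to all genes. For comparison, 17 of all 20 cytosolic members and 48.2% of all tested genes fell. The scaffolds moved in both directions. EEF1E1 was at 56.0, 60.6 and 66.4 TPM in sphere libraries, against 134, 141 and 149.99 TPM in parental libraries. AIMP2 was at 118, 106 and 114 TPM in sphere libraries, against 177, 154 and 151 TPM in parental libraries. Both fell, by -1.20 and -0.51 on the log2 scale, with every sphere library below every parental library (limma adjusted p = 6.8e-08 and 4.4e-05). AIMP1 rose slightly, at 32.2, 33.2 and 32.5 TPM in sphere libraries and 27.4, 28.6 and 29 TPM in parental libraries (log2 difference 0.20, limma adjusted p = 0.0029).

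By catalytic class, whose members share an active-site fold, 14 of 18 class I enzymes fell, 3 rose and 1 did not pass. All 3 synthetases that rose in TPM as deposited, WARS1, RARS2 and YARS2, are of class I. The call of YARS2 was lost in some fits with 1 library left out. Among all tested genes 48.2% fell and 35.1% rose. Of 18 class II enzymes 16 fell, none rose and 2 (GARS1 and HARS2) did not pass in limma. Of the 3 not called in either class, CARS1 is the class I gene, and none of the 3 had an unadjusted p under 0.05. EPRS1, which holds a domain of each class, fell. With median-of-ratios scaling the class II gene GARS1 passed as higher (log2 difference 0.088, limma adjusted p = 0.0392), as did CARS1 of class I.

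AARS2, NARS2 and VARS2 were among the mitochondrial enzymes that fell at least 2-fold. AARS2, the alanyl enzyme (Entrez Gene 57505), was at 6.61, 5.94 and 6.05 TPM in sphere libraries, against 17.6, 17.9 and 16.2 TPM in parental libraries. The groups did not come near each other, and the fall of 2.77-fold was the largest among the 37 members (log2 difference -1.34, standard error 0.070, limma adjusted p = 5.2e-08). NARS2, the asparaginyl enzyme (Entrez Gene 79731), was at 23.2, 26.6 and 26.4 TPM in sphere libraries, against 57.4, 62.9 and 57.6 TPM in parental libraries. VARS2, the valyl enzyme (Entrez Gene 57176), was at 11.3, 8.85 and 9.39 TPM in sphere libraries, against 24.2, 21.0 and 22.3 TPM in parental libraries. Neither NARS2 nor VARS2 overlapped between groups, and they fell 2.34-fold and 2.28-fold. The neighbours of AARS2, NARS2 and VARS2 had median log2 differences of -0.33, -0.35 and -0.35, against -0.13 for all tested genes. The part of these regions in the falls was not tested. At least 2-fold falls were found for 4 of 17 mitochondrial members and for 17.6% of all tested genes.

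EARS2, LARS2, CARS2 and SARS2, for glutamate, leucine, cysteine and serine, fell between 1.60-fold (SARS2) and 1.77-fold (EARS2). PARS2, WARS2, MARS2, FARS2, IARS2 and TARS2 fell between 1.48-fold (PARS2) and 1.16-fold (TARS2). The fall of FARS2 rested on few libraries: its log2 difference of -0.27 (limma adjusted p = 0.018) had an adjusted p of 0.0506 to 0.0627 when sphere replicate 1, parental replicate 1 or parental replicate 3 was left out. With median-of-ratios scaling neither FARS2 nor TARS2 passed. In GENCODE 29, 71.9% of the 50-base stretches of the SARS2 transcript also occur in transcripts of another protein-coding locus, so the assignment of reads to SARS2 is uncertain. For no other member did this share exceed 4.19%.

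RARS2 and YARS2 went the other way. RARS2, the arginyl enzyme (Entrez Gene 57038), was at 47.2, 47.9 and 48.0 TPM in sphere libraries, against 37.9, 36.2 and 35.6 TPM in parental libraries. Its groups did not overlap, and its log2 difference was 0.38 (standard error 0.044, limma adjusted p = 2.3e-05). Its neighbours were lower, with a median log2 difference of -0.46 over 40 genes. YARS2, the tyrosyl enzyme (Entrez Gene 51067), was at 23.4, 21.2 and 22.1 TPM in sphere libraries, against 20.6, 19.0 and 19.7 TPM in parental libraries. Its groups were close but did not overlap, with a log2 difference of 0.16 (limma adjusted p = 0.027). This call was lost when sphere replicate 1 or 3 or parental replicate 2 or 3 was left out (adjusted p from 0.0537 to 0.0956). The neighbours of YARS2 had a median log2 difference of 0.41.

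**Figure D3:**
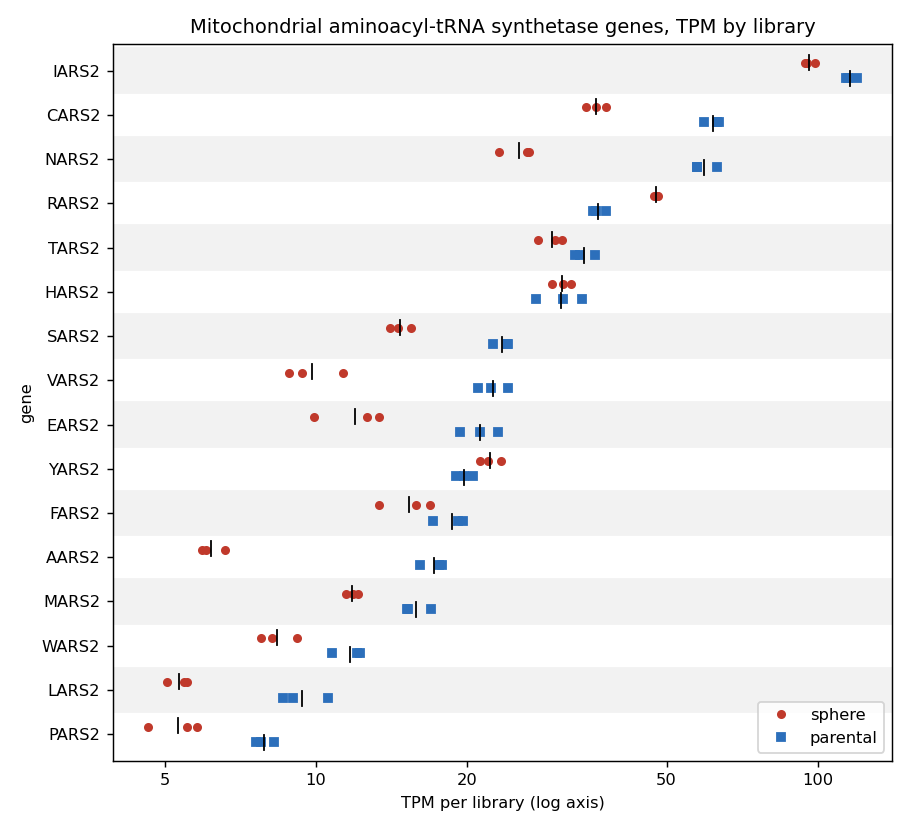
TPM of 16 mitochondrial synthetase genes in each sphere (circles) and parental (squares) library on a log axis, ordered by the parental mean, with black bars at the group means. IARS2 is the most abundant in each library, RARS2 and YARS2 lie to the right in sphere, and AARS2 shows the widest gap, at 5.94 to 6.61 TPM in sphere against 16.2 to 17.9 TPM in parental libraries.

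Mitochondrial synthetase transcripts were scarcer than cytosolic ones in both groups. They summed to 394, 396 and 403 TPM in sphere libraries, against 549.92, 562 and 539 TPM in parental libraries, a 1.38-fold lower level in sphere. Set against the cytosolic sum of the same library, this was 17.8 ± 0.3% in sphere and 18.9 ± 0.4% in parental libraries (SD, n = 3 each). The ratio of the sums differed by 1.06-fold between groups, less than most single enzymes did. GARS1 and KARS1, which encode both forms, were counted in the cytosolic sum only. IARS2, the isoleucyl enzyme, made up 24.2 ± 0.3% of the mitochondrial sum in sphere and 21.1 ± 0.2% in parental libraries. RARS2 ranked next in each sphere library and 5th in each parental library, with 12.0 ± 0.09% of the sum in sphere and 6.65 ± 0.23% in parental libraries.

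For each mitochondrial enzyme the TPM was also set against that of the cytosolic enzyme for the same amino acid in the same library, which gave 17 pairs. EPRS1 was the partner of both EARS2 and PARS2, and FARSA, the alpha subunit, that of FARS2. The mitochondrial transcript was the less abundant in all 17 pairs and all 6 libraries. The ratio was lower in sphere for 7 pairs and higher for 6, with no overlap between groups in these 13, and overlapped in the other 4. Set against the beta subunit FARSB instead, an alternative chosen after seeing the data, FARS2 was at 19.7, 24.2 and 24.5% in sphere libraries, against 21.8, 20.4 and 21.6% in parental libraries. These overlap, which leaves 5 pairs with a higher ratio. With 3 libraries against 3, the exact two-sided permutation test cannot go below p = 0.10, which these 13 pairs reached, and adjusted over the 17 pairs it was 0.131, so none passed. Single genes failed to overlap in 84.6% of all tested genes.

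Tryptophan gave the largest shift. WARS2 was at 6.99 ± 0.77% of WARS1 in sphere and 18.6 ± 1.3% in parental libraries (SD, n = 3 each). WARS2 itself was at 7.79, 9.16 and 8.17 TPM in sphere libraries, against 12.2, 12.1 and 10.8 TPM in parental libraries, so it fell while WARS1 rose. AARS2 was at 4.27 ± 0.25% of AARS1 in sphere and 9.53 ± 0.72% in parental libraries. NARS2, CARS2, SARS2 and LARS2 also had a lower ratio to their cytosolic partner in sphere libraries.

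In the opposite direction YARS2 was at 18.8 ± 0.7% of YARS1 in sphere and 11.0 ± 0.4% in parental libraries. YARS1 fell, at 119.72, 116 and 119 TPM in sphere libraries against 184, 181 and 176 TPM in parental libraries, while YARS2 rose. RARS2 was at 48.1 ± 0.2% of RARS1 in sphere and 30.0 ± 1.9% in parental libraries. RARS1 was at 98.5, 100.1 and 99.4 TPM in sphere libraries, against 118, 124 and 125 TPM in parental libraries. Tryptophan, tyrosine and arginine were the 3 pairs whose members passed in opposite directions. For tyrosine this rests on YARS2, whose call was lost in some fits with 1 library left out. In 12 of 17 pairs both members fell. Taken singly, 17 of 20 cytosolic and 14 of 17 mitochondrial members fell, as did 48.2% of all tested genes.

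The histidyl pair differed although the genes begin beside each other. HARS1 and HARS2 start on opposite strands with 84 bases between their annotated starts, the stretch printed above. HARS2 (Entrez Gene 23438) was at 29.6, 31.2 and 32.3 TPM in sphere libraries, against 27.5, 31.1 and 33.9 TPM in parental libraries. Its groups overlapped and it did not pass (log2 difference 0.013, 95% interval from -0.15 to 0.18, limma adjusted p = 0.878), while HARS1 fell 1.64-fold. HARS2 was thus at 42.9 ± 1.7% of HARS1 in sphere and 26.0 ± 2.9% in parental libraries (SD, n = 3 each). The HARS1 and HARS2 transcripts of GENCODE 29 shared no exact stretch of 50 bases with each other. Strand use in counting is not stated in the labels, so reads from where the genes lie close cannot be told apart by strand.

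**Figure D4:**
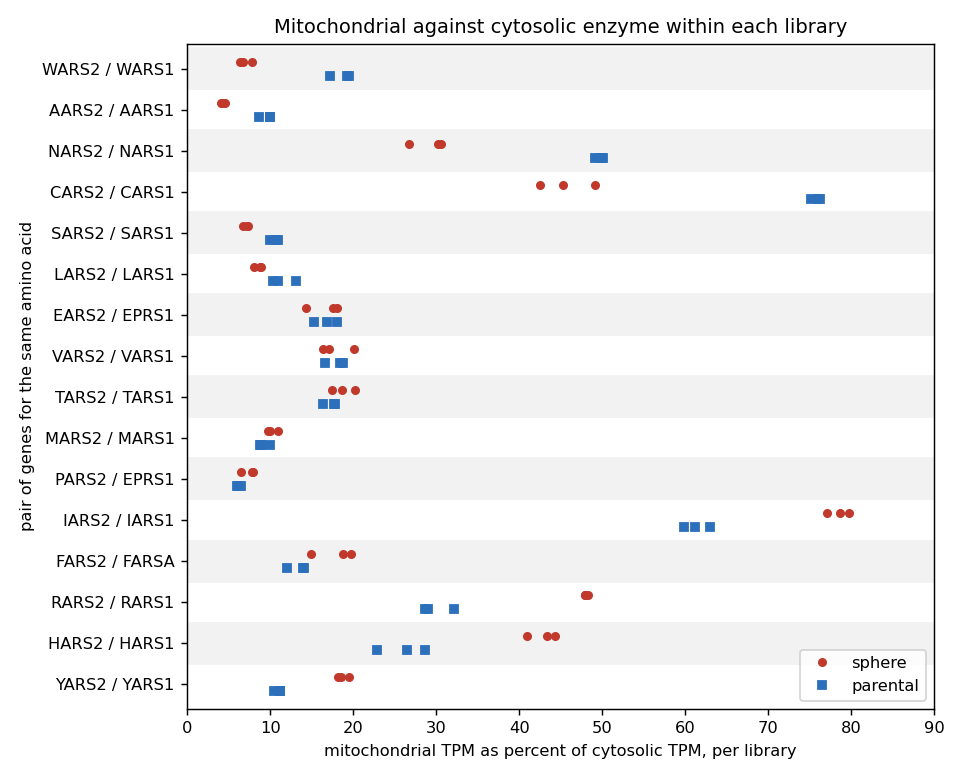
TPM of the mitochondrial enzyme of 16 pairs as a percent of the TPM of the cytosolic enzyme for the same amino acid, in each sphere (circles) and parental (squares) library, ordered from the largest fall to the largest rise of the ratio. Pairs at the top have lower ratios in sphere (WARS2 to WARS1 at a mean of 6.99% in sphere against 18.6% in parental libraries), and pairs at the bottom higher ones (YARS2 to YARS1 at 18.8% in sphere against 11.0% in parental libraries).

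ATF4 and its targets outside the synthetases did not move as a block in these libraries. ATF4 itself was at 457 ± 2.0 TPM in sphere and 344 ± 21.5 TPM in parental libraries (SD, n = 3 each; limma adjusted p = 1.4e-05). Of 31 genes in this list 15 rose, 13 fell and 3 did not pass, where 35.1% of all tested genes rose and 48.2% fell. The median of the list was 0.33 relative to all genes. CHAC1, which degrades glutathione, had the largest rise (log2 difference 3.02) and STC2, a secreted glycoprotein hormone, the largest fall (-2.38). Of the 13 cytosolic synthetase genes known as ATF4 targets 10 fell, WARS1 rose, and CARS1 and GARS1 did not pass. The 7 cytosolic members not on that list all fell. The medians of these groups relative to all genes were -0.25 each. XPOT, the export receptor for tRNA and an ATF4 target, was at 71.4 ± 1.2 TPM in sphere and 56.4 ± 1.6 TPM in parental libraries.

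Other enzymes that handle aminoacyl-tRNA split more evenly than the synthetases, close to the shares of all tested genes. Of 12 such genes 4 rose, 5 fell and 3 did not pass, where 35.1% of all tested genes rose and 48.2% fell. Their median was 0.15 relative to all genes. With median-of-ratios scaling 6 were higher and 4 lower, and with a mean of at least 5 TPM 2 were higher. AARSD1, an editing enzyme that clears wrongly loaded tRNA for alanine, had the largest fall. It was at 30.9 ± 1.1 TPM in sphere and 72.3 ± 3.9 TPM in parental libraries (SD, n = 3 each). SEPSECS and PSTK, which make selenocysteinyl-tRNA, both rose at low levels. SEPSECS was at 2.90 ± 0.18 TPM in sphere and 1.60 ± 0.18 TPM in parental libraries. PSTK was at 5.50 ± 0.36 TPM in sphere and 3.88 ± 0.60 TPM in parental libraries. Neither was tested under the filter of at least 5 TPM on average. GATB and QRSL1, subunits of the amidotransferase that finishes mitochondrial glutaminyl-tRNA, fell along with EARS2, which loads the glutamate, and the third subunit GATC did not pass (limma adjusted p = 0.319). QRSL1 did not pass with median-of-ratios scaling, nor without sphere replicate 2 (adjusted p = 0.0525). TARS3, a threonyl-tRNA synthetase outside the membership rule, was at 6.52 ± 0.12 TPM in sphere and 6.01 ± 0.35 TPM in parental libraries and did not pass (limma adjusted p = 0.215), but passed as higher with median-of-ratios scaling.

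Genes that make tRNA or act in translation beside the synthetases were split by list. Of 15 genes of mitochondrial translation and transcription 10 fell, 1 rose and 4 did not pass, with a median of -0.42 relative to all genes. TFAM, the mitochondrial transcription factor, had the largest fall, at 38.6 ± 3.3 TPM in sphere and 125 ± 6.9 TPM in parental libraries (SD, n = 3 each), and MTIF3, an initiation factor, was the gene that rose, at 63.1 ± 2.6 TPM in sphere and 43.2 ± 2.0 TPM in parental libraries. Of 6 cytosolic elongation genes 3 fell, with the largest fall in EIF5A (log2 difference -1.42), and 3 did not pass, with a median of -0.040 relative to all genes. In limma none of the 6 rose, with EEF1A1 at an unadjusted p of 0.0473. With a robust prior or without sphere replicate 2, 1 rose, and 2 rose with median-of-ratios scaling. Of 23 genes of tRNA synthesis and processing 14 fell, 5 rose and 4 did not pass, with a median of -0.19 relative to all genes. Of all tested genes 48.2% fell and 35.1% rose. The RNA polymerase III subunit POLR3K had the largest fall (-1.83) and POLR3GL, another subunit, the largest rise (1.13). Under median-of-ratios scaling that list had 8 higher and 12 lower genes, and the mitochondrial list 4 and 10. Without sphere replicate 2 the mitochondrial list had 2 higher genes.

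**Figure D5:**
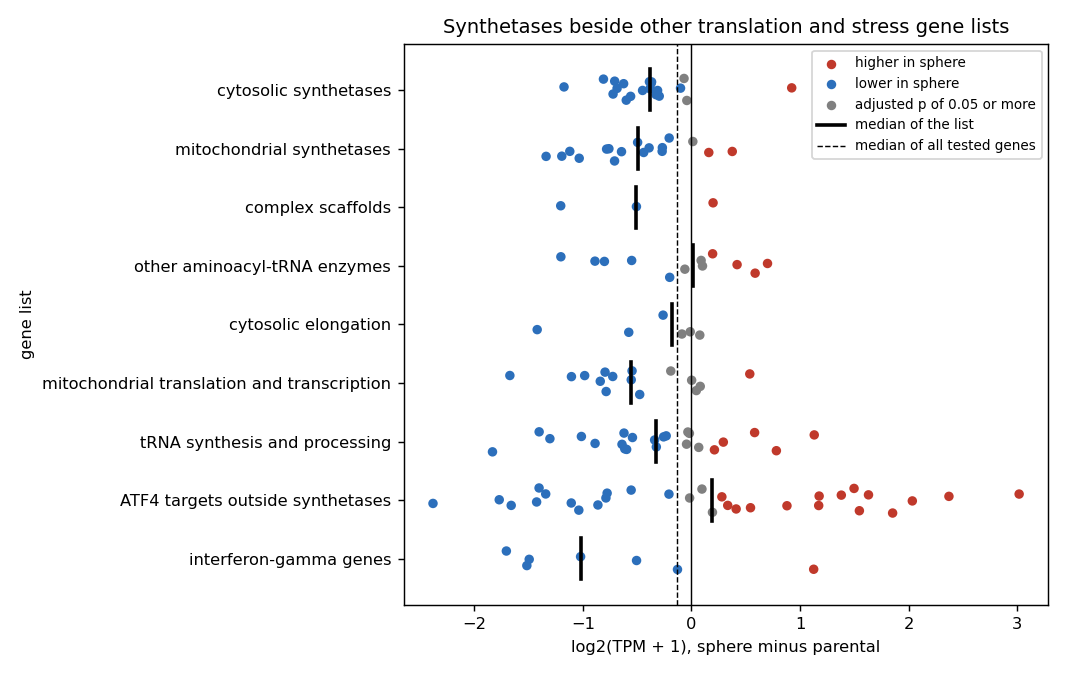
Log2 difference on the log2(TPM + 1) scale, sphere minus parental, of each tested gene in the synthetase groups and in the other lists; black bars are list medians and the dashed line is the median of all tested genes. Both synthetase groups cluster to the left of the dashed line, whereas ATF4 targets spread from -2.38 (STC2) to 3.02 (CHAC1).

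The libraries listed 15398 to 15448 genes above 0 in sphere and 15045 to 15087 in parental cells. TPM keep no sequencing depth, so the depth is unknown. Of 7 squamous epithelial markers 6 rose and EPCAM fell, and their summed TPM was 28146 to 28322 in sphere and 1471 to 1531 in parental libraries. Markers of other cell types summed to 15.6 to 17.2 TPM in sphere and 12.0 to 12.4 TPM in parental libraries for fibroblasts, and to 0.26 to 0.30 TPM in sphere and 10.95 to 11.9 TPM in parental libraries for endothelium. Of the endothelial markers 1 was tested, and that gene made up most of the parental sum. Leukocyte markers summed to 183 to 187 TPM in sphere and 134 to 139 TPM in parental libraries, mostly from CD68 and HLA-DRA, and PTPRC and CD3E were listed at 0 in each parental library. Of these 3 lists 6 genes were tested, of which 2 rose, 3 fell and 1 did not pass. For comparison with the marker counts, 35.1% of all tested genes rose and 48.2% fell. The part of these marker changes in the synthetase differences was not tested.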

How the data were processed

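Total RNA, isolated with Trizol, was read on a BGISEQ-500 in single-end reads of 50 bases, per the labels' protocols, in 3 sphere and 3 parental libraries. The authors deposited TPM per gene, per the file headers, with the same sum in each library. HISAT and Bowtie2, and GRCm38.p6, a mouse build, are named per the submitters' processing notes, although the gene IDs are human Entrez Gene IDs. For counting tool, annotation and strand use, nothing is given in the sources used here. Columns named Control were taken as parental.

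Genes with a mean of at least 1 TPM (12261 of 17110) were tested two-sided as sphere minus parental on log2(TPM + 1), using limma 3.58.1 (R 4.3.3) with a mean-variance trend in eBayes. Adjustment over all tested genes was by Benjamini-Hochberg, with a threshold of 0.05. Differences on this scale understate the change of low genes, and folds are ratios of mean TPM. The fit had 4 residual degrees of freedom. Depth is unknown, so precision rests on the spread between libraries. Pair ratios were tested with exact permutation in Python 3.11.15 (scipy 1.17.1).

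Neighbours are the 20 tested genes on each side in the RefSeq order (GRCh38.p14). The build behind the TPM is unclear, and RefSeq coordinates served only to order neighbours and to locate promoter sequences. Shared stretches of 50 bases were sought in the longest protein-coding transcript of each member in GENCODE 29. The members and lists were chosen with earlier results of these data known. Values per library are given for the 4 largest rises and falls per compartment, for pairs called in opposite directions and for scaffolds; other lists give their largest rise and fall. Some genes are counted but not reported here by name or drawn by name. ATF4, XPOT, SEPSECS, PSTK, GATB, QRSL1, GATC, TARS3, EEF1A1, HARS2, SARS1, GARS1 and CARS1 were singled out after their values were seen. The alternatives changed the pseudocount (0.1), the filter (none, or 5 TPM on average), the scaling (median of ratios), the variance model (robust prior, array weights, no trend) or the design (replicate block), or dropped 1 library.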

Additional observations from a re-analysis of the deposited data

How the results depend on the processing

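Of the 37 synthetases, 30 kept their direction and their side of the threshold under all 14 alternatives. The other 7 were SARS1, GARS1, CARS1, FARS2, TARS2, HARS2 and YARS2, all with small differences. Median-of-ratios scaling reversed SARS1 (0.056, limma adjusted p = 0.252), GARS1 (0.088, adjusted p = 0.0392) and CARS1 (0.11, adjusted p = 0.0272), and outside the members GATC (0.090, adjusted p = 0.136). SARS1 did not pass there, and WARS1, GARS1 and CARS1 were the 3 cytosolic genes called higher. This scaling moved the medians to -0.23 for cytosolic and -0.36 for mitochondrial members, as it moved all genes by 0.14. HARS2, which did not pass, ranged from -0.064 to 0.081 with 1 library left out, below 0 without sphere replicate 3 or parental replicate 1. A pseudocount of 0.1 gave a mitochondrial median of -0.56. With 1 library left out, the cytosolic median was -0.41 to -0.38 and the mitochondrial median -0.55 to -0.43. Mitochondrial genes higher in sphere then numbered 1 to 2, since YARS2 was lost without sphere replicate 1 or 3 or parental replicate 2 or 3. Among cytosolic genes 1 was then higher in each case. With the replicate block 16 in place of 17 cytosolic genes were lower, as SARS1 was lost (adjusted p = 0.0559; it was also lost, leaving 16, with no trend, adjusted p = 0.0945), and the mitochondrial counts were 2 and 14. The labels do not say that replicate numbers pair libraries, and the deviations of same-numbered libraries correlated at 0.018, -0.018 and -0.055. The cause of these changes was not tested.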
